A study of Rattus norvegicus with 9 samples.

Results

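The BCL2 family controls the mitochondrial branch of apoptosis, and 9 of its genes were listed for study here: Bax, Bak1, Bcl2, Bcl2l1, Mcl1, Bid, Bad, Bcl2l11 and Bbc3. They were looked up by name in the gene symbol column of the deposited tables. Of the 9 listed genes, 7 were found among 17156 gene names; Mcl1 and Bbc3 were not analysed here. In the rat reference, the spans of Bak1, Bcl2, Bcl2l1 and Bcl2l11, 4 of the 7, overlap that of another gene (Bcl2l11 overlaps Acoxl, for example). Whole spans were compared, not exons, and no strand setting is stated. Whether any counted reads are shared is therefore not known.

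Apoptosis through the mitochondrion is decided at the outer mitochondrial membrane. BAX and BAK, the effector proteins, form pores there that release cytochrome c, which then assembles with APAF1 to activate caspase-9, an initiator caspase. The anti-apoptotic members, such as BCL-2 and BCL-XL, hold the effectors in check, and the BH3-only members, such as BID, BAD and BIM, relay stress signals to both. In hepatocytes the branch also serves death receptors, because caspase-8 cuts BID into its active form. Much of this control acts on the proteins, by cleavage, phosphorylation and relocation, which an RNA measurement does not see.

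Whole-liver RNA came from 9 male Sprague-Dawley rats, 3 in each of 3 groups, and reads were counted per gene. The normal control group received neither carbon tetrachloride nor tormentic acid. The model group received carbon tetrachloride (CCl4), a liver toxin, by gavage at 2 ml/kg as a 50% solution in oil, 2 times a week for 9 weeks. The TA group received the same CCl4 course and after it tormentic acid (TA), a plant triterpene, for 6 weeks. The paper places sampling at the end of the treatment. The labels of its libraries carry no dose, and the study also had a lower dose arm; the dose of 3 mg/kg is assumed here. All rats were fasted for 12 h before sampling. In bulk tissue, fewer cells of a type and less RNA per cell cannot be told apart.

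Each liver gave between 13156735 and 18090405 counted reads. One library stood apart: in the first model liver the 50 most abundant genes took 27.9% of reads, against 40.4% to 45.7% in the other 8 livers, and its TMM normalization factor was 1.72, against 0.819 to 1.17. Hepatocyte markers (6 of 6 in the tables, Alb among them) summed to between 109808 and 139563 reads per 1000000 counted reads (CPM) in normal livers, as in liver tissue; they summed to 25530 in the first model liver, 74074 and 94223 in the other 2, and between 87074 and 150108 in the TA group. Markers of stellate cells and myofibroblasts summed to between 173 and 264 CPM in normal livers, between 1099 and 11902 in model livers, with the highest value in the first, and between 603 and 1101 under TA. Their part in the differences below was not tested.

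Per unit of transcript length, Bax was the most abundant member in 8 of 9 livers and Bcl2 the least in all 9. The exception was TA liver 2, where Bax had 11.2 FPKM, below Bid at 13.9 and Bad at 12.7. Levels between genes were compared on FPKM, fragments per kilobase of transcript scaled to the reads of the library. Bax, which encodes an effector, had 27.4, 24.0 and 31.4 FPKM in the normal livers, and its mean stood at percentile 88.4 of all genes. Bcl2, the founding anti-apoptotic member, had 0.0341, 0.0537 and 0.266 FPKM there, at percentile 20.4. The median normal levels between these ends were 12.9 FPKM for Bad, 11.9 for Bid, 7.26 for Bcl2l1, 3.99 for Bak1 and 1.57 for Bcl2l11. Bad and Bid, which both encode BH3-only proteins, overlapped in their normal ranges, and Bad was above Bid in 5 of 9 livers. Every other pair of neighbours in this order was separated in the 3 normal livers. Bcl2l1, which encodes the anti-apoptotic BCL-XL, was above Bcl2 in each of the 9 livers on this scale, with at least 5.64 FPKM against at most 0.628. All 9 livers together held 71 reads of Bcl2.

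**Figure D1:**
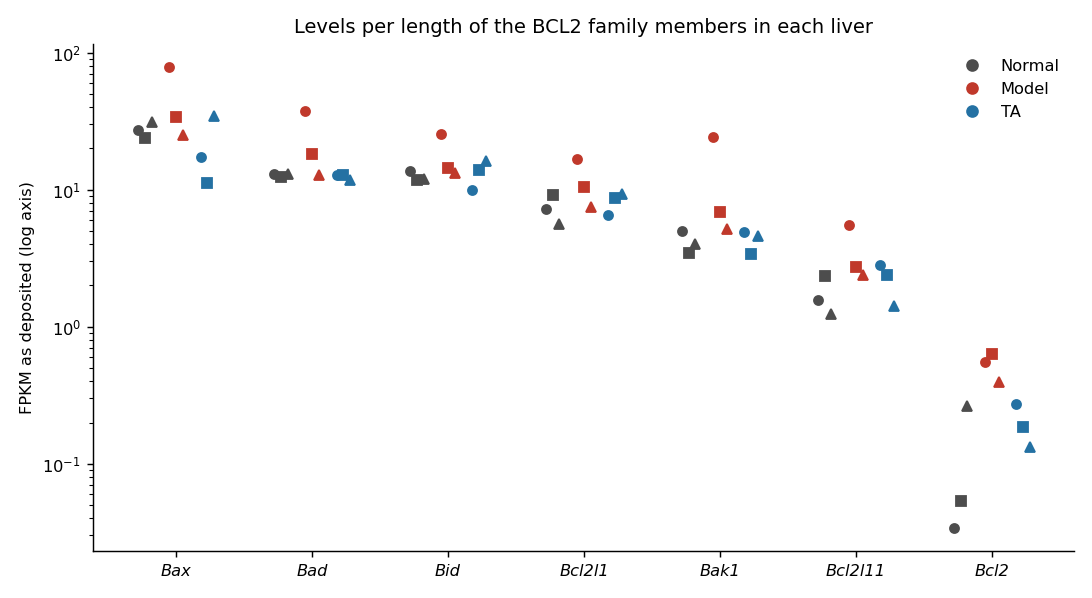
FPKM as deposited (log axis) of the 7 members in each liver, ordered by level; grey, red and blue are the normal, model and TA groups, and circles, squares and triangles are livers 1, 2 and 3 of a group. Bax lies highest in each liver but TA liver 2 (blue square), Bcl2 lies lowest, and the first model liver (red circle) is the highest liver for 6 of the 7 members on this scale, which is not adjusted for library composition.

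Between groups no member passed the test. Model VS Normal had 0 of 7 members with an adjusted p under 0.05 in edgeR's quasi-likelihood test, against 7.87% of the 12730 genes tested. TA VS Model had 0 of 7, in a comparison where 0% of 12781 genes passed. TA VS Normal had 0 of 6, against 0.263% of 12179 genes, since Bcl2 had too few reads to be tested there. The study called genes by an unadjusted p under 0.05 and a change of over 1 on the log2 scale in either direction. By these thresholds the count was also 0 in each comparison, against 22.1%, 12.3% and 5.25% of genes. An unadjusted p under 0.05 alone was reached by 0 members in each, against 28.9%, 15.6% and 9.43% of genes, and DESeq2 gave 0 members by either p. With same-numbered TA and normal livers paired by a replicate block, Bax had an unadjusted p under 0.05 in TA VS Normal, 1 of 6 members where 18.7% of genes did. The smallest adjusted p of any member was 0.236 in Model VS Normal, 0.352 in TA VS Model and 0.760 in TA VS Normal. The median log2 fold change of the members was 0.14, -0.33 and -0.10, beside 0.02, -0.00 and -0.01 over all genes tested.

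**Figure D2:**
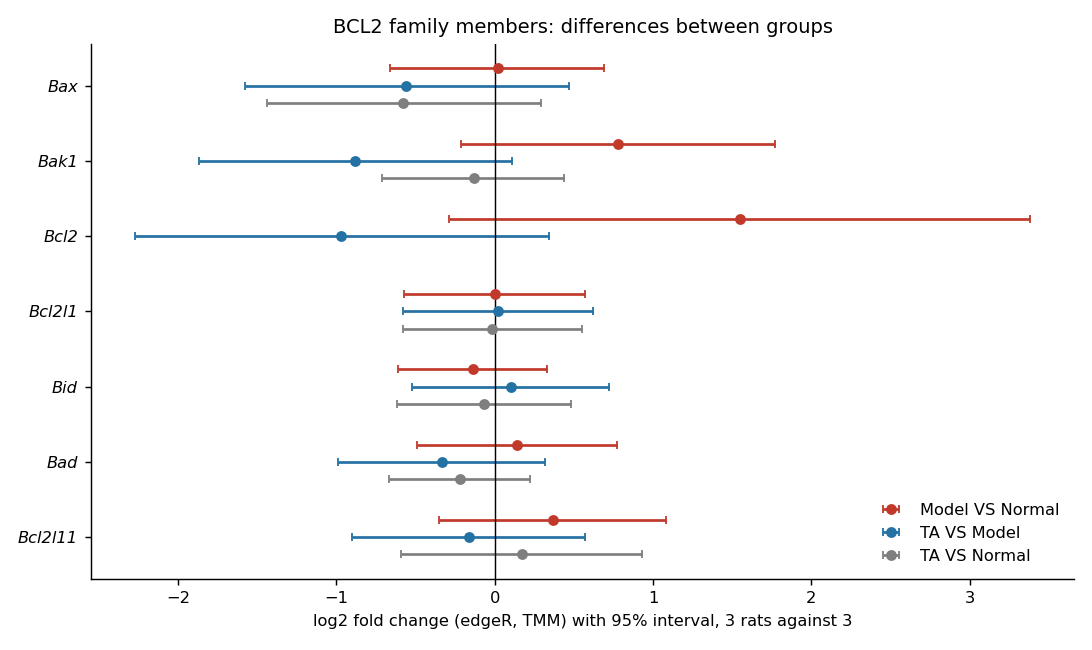
Log2 fold change (edgeR, TMM scaling) with its 95% interval for the 7 members; red is Model VS Normal, blue TA VS Model and grey TA VS Normal, 3 rats against 3. Every interval includes 0; the widest are those of Bcl2, from -0.29 to 3.38 and from -2.27 to 0.34, and Bcl2 has no grey interval because it was not tested there.

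The effectors come first, on the CPM scale after TMM. Bax had 41.7, 35.8 and 48.9 CPM in the 3 normal livers, 58.2, 36.9 and 30.6 in the model livers, and 22.4, 16.1 and 48.2 in the TA livers. The model livers lay on both sides of the normal ones, and TA livers 1 and 2 were the lowest of the 9 while TA liver 3 was as high as a normal liver. Model VS Normal gave a log2 fold change of 0.02 (SE 0.29, adjusted p = 0.978, edgeR), a 95% interval of 0.632-fold to 1.62-fold, and its sign turned to -0.32 without the first model liver. It was -0.56 (SE 0.44, adjusted p = 0.537, edgeR) in TA VS Model and -0.58 (SE 0.38, adjusted p = 0.760, edgeR) in TA VS Normal. Paired by number, each TA liver was below its normal liver, the third by little, and the blocked value was -0.71 (unadjusted p = 0.0169, adjusted p = 0.167, edgeR). The TA group had the widest relative spread of Bax, a coefficient of variation of 59.0% against 15.5% in normal and 34.4% in model livers. TA liver 3 decided the size: without it the log2 fold change was -1.13 in TA VS Model and -1.16 in TA VS Normal (adjusted p = 0.110, edgeR), both within the study's thresholds.

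Bak1, whose protein shares the pore-forming role, had 12.1, 8.15 and 9.87 CPM in normal livers, 28.5, 12.0 and 9.98 in model livers, and 10.0, 7.73 and 10.2 in TA livers. The first model liver alone was high; the other 8 livers lay between 7.73 and 12.1 CPM. Its log2 fold change stood at 0.78 (SE 0.43, adjusted p = 0.264, edgeR) in Model VS Normal and -0.88 (SE 0.43, adjusted p = 0.352, edgeR) in TA VS Model. Without the first model liver these values were 0.13 and -0.24, and without the third they were 1.03 and -1.14, which met the study's thresholds.

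Of the anti-apoptotic members, Bcl2 was near the limit of detection. It had 1, 2 and 8 reads in normal livers, 15, 17 and 11 in model livers, and 8, 5 and 4 in TA livers. On the CPM scale these were 0.0837, 0.129 and 0.669, then 0.662, 1.11 and 0.779, then 0.573, 0.425 and 0.299. The model livers were above the first 2 normal livers and all TA livers; against normal liver 3, model liver 1 was level and model livers 2 and 3 were higher. The counting interval of a single liver was wide, from 0.00212 to 0.466 CPM in the first normal liver and from 0.646 to 1.77 CPM in the second model liver (95% Poisson, counting error only). Model VS Normal gave a log2 fold change of 1.55 (SE 0.79, adjusted p = 0.236, edgeR), and TA VS Model -0.97 (SE 0.56, adjusted p = 0.416, edgeR). With any 1 liver left out, the Model VS Normal value ranged from 1.12 to 2.87. It was highest without normal liver 3, which had the most Bcl2 reads of its group, and there met the study's thresholds. Limma's voom with sample quality weights gave 2.64 with an adjusted p of 0.0171, the only 1 of 318 recomputed member values with an adjusted p under 0.05.

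Bcl2l1 had 35.7, 44.1 and 28.3 CPM in normal livers, 40.0, 37.1 and 29.1 in model livers, and 27.3, 40.0 and 41.8 in TA livers. The 3 groups covered the same range. Its log2 fold changes were -0.00, 0.02 and -0.02 in Model VS Normal, TA VS Model and TA VS Normal, with 95% intervals of 0.672-fold to 1.48-fold, 0.670-fold to 1.54-fold and 0.668-fold to 1.46-fold.

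The BH3-only members follow. Bid, the link from death receptors to the mitochondrion, had 32.3, 27.4 and 28.8 CPM in normal, 29.6, 24.8 and 24.9 in model and 19.9, 31.0 and 35.2 in TA livers. TA livers held both the lowest and the highest value. Its log2 fold changes were -0.14 (95% interval -0.61 to 0.33) in Model VS Normal, 0.10 in TA VS Model and -0.07 in TA VS Normal.

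Bad, which encodes a BH3-only protein controlled by survival kinases, had 15.5, 14.5 and 15.8 CPM in normal livers, 21.9, 15.6 and 12.2 in model livers, and 13.0, 14.3 and 12.8 in TA livers. The model group spanned the values of the other groups, while each TA liver lay just below each normal liver. Its log2 fold changes were 0.14 in Model VS Normal, -0.33 in TA VS Model and -0.22 (SE 0.20, adjusted p = 0.848, edgeR) in TA VS Normal.

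Bcl2l11, which encodes BIM, had 9.63, 14.2 and 7.78 CPM in normal livers, 16.5, 12.1 and 11.6 in model livers, and 14.7, 13.8 and 7.92 in TA livers. No group was set apart. Its log2 fold changes were 0.37 (SE 0.31, adjusted p = 0.455, edgeR) in Model VS Normal, -0.16 in TA VS Model and 0.17 in TA VS Normal.

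**Figure D3:**
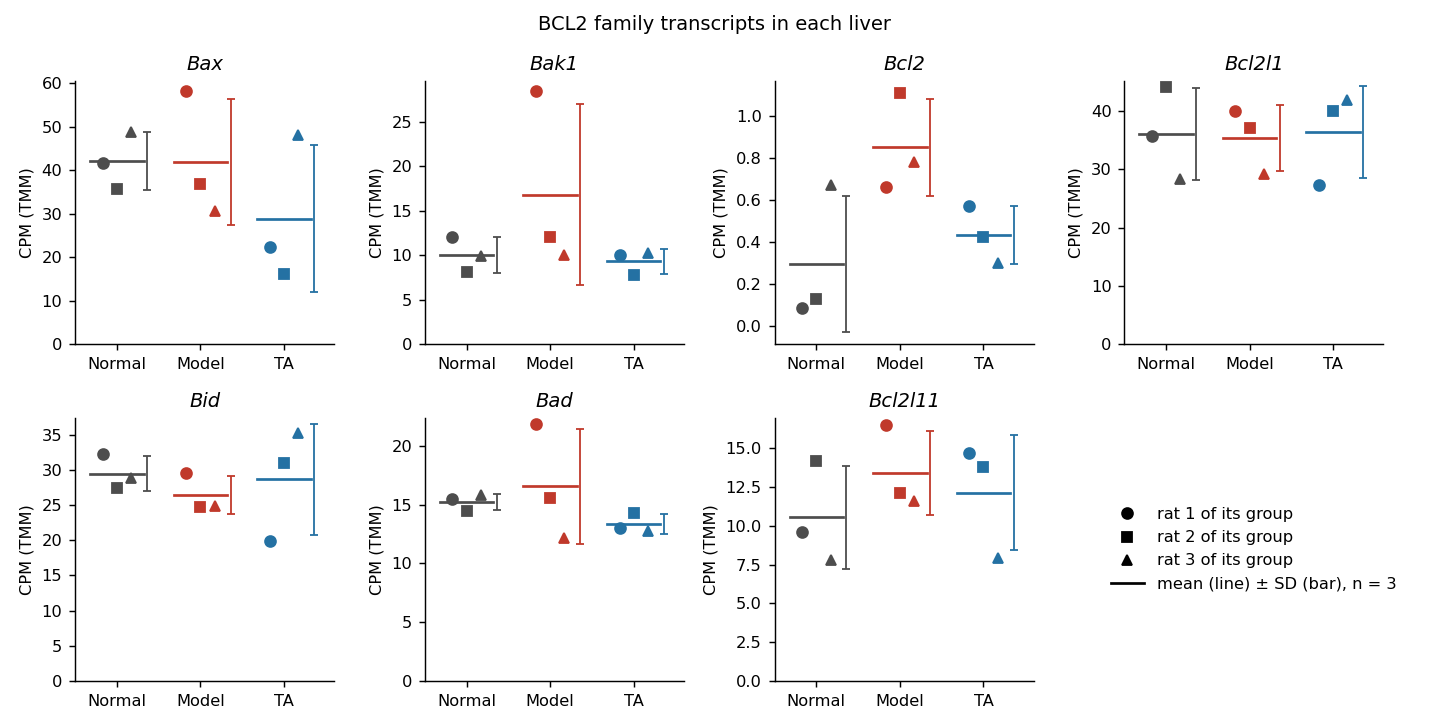
CPM after TMM of the 7 members in each liver (y axes start at 0 except where an SD bar reaches below it); circles, squares and triangles are livers 1, 2 and 3 of a group, and lines with bars are the mean ± SD, n = 3. Groups overlap in most panels; the first model liver stands above all others for Bak1, and TA liver 3 stands above the other 2 TA livers for Bax.

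Of the 21 pairs of groups, over 7 members and 3 comparisons, 2 did not overlap. In Model VS Normal 0 of 7 members were separated, against 38.2% of all genes. Bcl2 was separated in TA VS Model, lower in every TA liver than in every model liver, 1 of 7 against 23.2% of genes. Bad was separated in TA VS Normal, again 1 of 7, against 14.8%, and it overlapped on the FPKM scale. For each the two-sided exact permutation test gave p = 0.10, the smallest that 3 livers against 3 allow.

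The scale changed which members were separated. On FPKM, which divides by all reads of a library, Bak1, Bcl2 and Bcl2l11 were higher in every model liver than in every normal liver, 3 of 7 members where 43.0% of genes were. On that scale Bak1 and Bcl2 were lower in every TA liver than in every model liver, 2 of 7 where 25.0% of genes were. With library totals in place of TMM, the median log2 fold change of all genes moved from 0.02 to 0.65 in Model VS Normal and from -0.00 to -0.48 in TA VS Model. Bak1 then stood at 1.55 and -1.50, Bcl2 at 2.14 and -1.40, and Bcl2l11 at 1.04 and -0.68. The first 2 genes met the study's thresholds in both comparisons and Bcl2l11 in the first. The share of all genes that met them with library totals is not given here. Relative to the shift of all genes, Bid at 0.52 and Bcl2l1 at 0.65 had no excess in Model VS Normal.

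Ratios within a liver do not depend on how libraries are scaled. The study assayed Bax with Bcl-2, and the share of Bcl2 in the reads of Bax and Bcl2 was 0.200%, 0.360% and 1.35% in normal livers. It was 1.12%, 2.92% and 2.48% in model livers and 2.49%, 2.58% and 0.615% in TA livers. The 95% Clopper-Pearson intervals ran from 0.00507% to 1.11% in the first normal liver, from 0.631% to 1.85% in the first model liver and from 0.168% to 1.57% in TA liver 3, and they cover counting error only. Bax reads outnumbered Bcl2 reads in every liver, and the 3 groups overlapped.

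Against Bcl2l1, which was more abundant than Bcl2, Bax had 1.17, 0.814 and 1.73 reads per read in normal livers. It had 1.45, 0.995 and 1.05 in model livers, and 0.822, 0.401 and 1.15 in TA livers. The groups overlapped. Read ratios are not divided by transcript length. Per unit of length Bax was above Bcl2l1 in each liver, from 1.29-fold in TA liver 2 to 5.56-fold in normal liver 3. Bak1 had 0.713 reads per read of Bcl2l1 in the first model liver and between 0.185 and 0.367 in the other 8 livers. Bcl2l11 had 0.270, 0.322 and 0.274 in normal livers and 0.411, 0.325 and 0.399 in model livers. Every model liver was above every normal liver in this ratio, whereas the TA livers, at 0.538, 0.344 and 0.189, spanned them all. The margin was small: 185 to 569 reads in model liver 2 against 219 to 681 in normal liver 2. No counting interval and no share over other gene pairs is given for it. The ratios of Bid and of Bad to Bcl2l1 overlapped between model and normal livers.

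**Figure D4:**
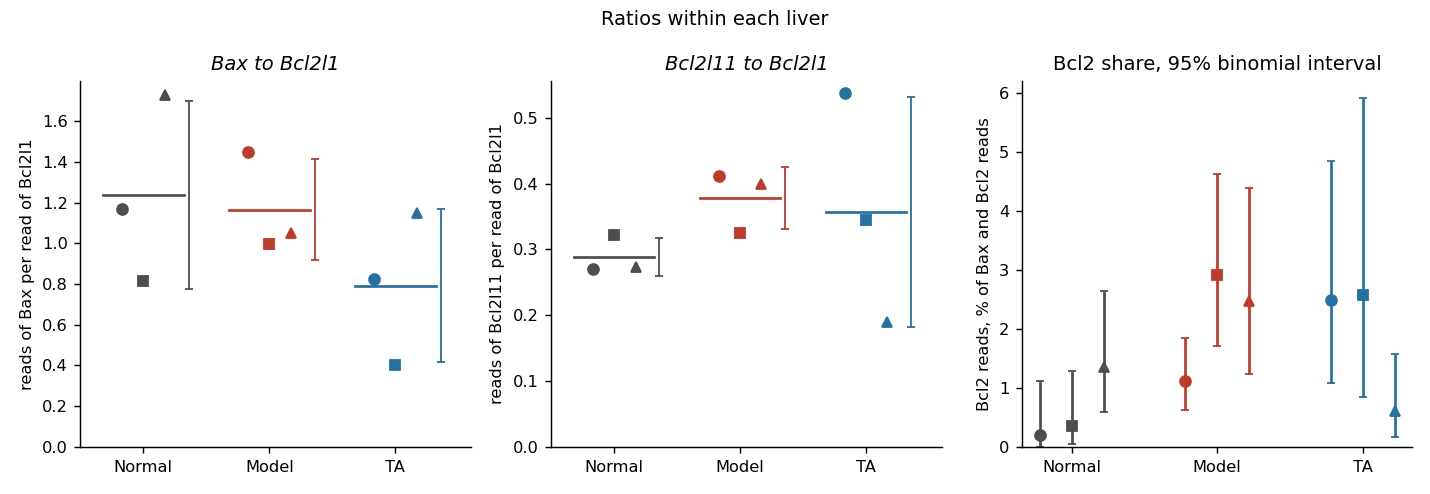
Reads of Bax and of Bcl2l11 per read of Bcl2l1, and the share of Bcl2 (percent) in the reads of Bax and Bcl2, in each liver; circles, squares and triangles are livers 1, 2 and 3 of a group, lines with bars in the first 2 panels are the mean ± SD (n = 3), and bars in the last panel are 95% Clopper-Pearson intervals. The groups overlap in each panel, except that the model livers lie above the normal livers for Bcl2l11, by a small margin. TA liver 2 has the lowest Bax ratio, 0.401.

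Across the 9 livers, pairs of members other than Bcl2 had Pearson correlations of log2 CPM between -0.48 and 0.82. The highest was between Bak1 and Bad, and it was 0.22 without the first model liver. Bcl2l1 and Bid had 0.62, and 0.61 without that liver; Bax and Bcl2l11 had -0.39, and -0.78 without it. The points share group and library composition, so these values are a description. Genes whose log2 CPM averaged 3 or more, 7957 of them, were searched for like patterns. The patterns most like that of Bax were those of LOC498555 (r = 0.95), Rps23, a ribosomal protein gene (r = 0.94), and Snrpd2, a spliceosome subunit gene (r = 0.94), with 0.94, 0.92 and 0.93 without the first model liver. The patterns most like that of Bcl2 were those of Car2, a carbonic anhydrase gene (0.95), Tubgcp5, of the gamma-tubulin complex (0.93), and Cxcl14, a chemokine gene (0.92), on the few reads of Bcl2.

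Around the members, 38 other genes of the apoptosis pathway were listed and 37 were found in the tables. In Model VS Normal 2 of 35 tested genes rose and 0 fell at an adjusted p under 0.05, beside 7.87% of all genes. By the study's thresholds 8 were higher and 1 was lower, beside 22.1% of all genes. An unadjusted p under 0.05 was reached by 12, beside 28.9%, and DESeq2 gave 9 by its adjusted p, beside 2654 of 12730 genes. TA VS Model had 0 of 35 past the adjusted p, and 5 were lower and 0 higher by the study's thresholds, beside 12.3% of genes in either direction. An unadjusted p under 0.05 was reached by 7, beside 15.6%, and DESeq2 gave 4, beside 541 of 12781 genes. In TA VS Normal 0 of 33 passed, 2 were higher by the study's thresholds (5.25% of all genes in either direction), 4 had an unadjusted p under 0.05 (9.43%), and DESeq2 gave 3 (360 of 12179 genes).

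The other pathway gene with the largest log2 fold change in Model VS Normal was Bok, whose protein is a BCL2 family relative of BAX and BAK. Bok had 4.10, 1.62 and 4.52 CPM in normal livers, 32.4, 62.1 and 20.8 in model livers, and 12.1, 9.85 and 8.21 in TA livers. The 3 groups did not overlap, and the TA livers lay between the others. Bok rose 11.5-fold in Model VS Normal (log2 fold change 3.52, SE 0.54, adjusted p = 0.0143, edgeR), and the value without the first model liver was 3.62 (adjusted p = 0.0108, edgeR). Leaving out a normal liver instead gave between 3.16 and 3.75, with adjusted p between 0.0623 and 0.0916, in comparisons where 51, 0 and 0 genes of all passed. In TA VS Model Bok stood at -1.95 (adjusted p = 0.230, edgeR; 0.00358 in DESeq2) and in TA VS Normal at 1.54 (adjusted p = 0.197, edgeR; 0.0150 in DESeq2). The cholangiocyte marker sum (4 of 4 genes) had the same order of groups. It was 15.8 to 23.7 CPM in normal, 75.9 to 136 in model and 28.8 to 32.4 in TA livers. Epcam gave most of this sum in normal and TA livers. Epcam and Sox9 each had this order, while Krt19 and Krt7 overlapped between TA and normal livers. Among model livers the sum was highest in the first and Bok in the second. The part of these cells in the Bok values was not tested.

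Casp2, an initiator caspase gene, had 8.79, 7.89 and 9.95 CPM in normal livers, 19.2, 18.6 and 14.9 in model livers, and 10.4, 8.66 and 12.4 in TA livers. The model livers were above all others, and the TA and normal groups overlapped. Casp2 rose 2.01-fold in Model VS Normal (SE 0.25 on the log2 scale, adjusted p = 0.0468, edgeR), and it passed in 1 of the 6 fits that each left out a liver, the one without the third model liver (adjusted p = 0.0340, edgeR). The call was also lost with no filter (adjusted p = 0.0529) and with the replicate block (0.0733). The reference lists another gene, LOC120102741, overlapping Casp2.

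By role, the other BCL2 family genes had 4 of 11 tested members higher by the study's thresholds in Model VS Normal, beside 2112 of 12730 genes, and 4 of 11 lower in TA VS Model, beside 1301 of 12781. Besides Bok, these were named after their values were seen. Bcl2a1, an anti-apoptotic gene of leukocytes, had 2.14 and -1.81, and 0.98 and -0.66 without the first model liver. Bik and Pmaip1, which encode BH3-only proteins, had 3.10 and 2.06 in Model VS Normal (adjusted p = 0.0541 and 0.0627, edgeR). Bik had -2.17 (adjusted p = 0.246, edgeR) and Bcl2l14 -1.78 (adjusted p = 0.264, edgeR) in TA VS Model. Reads were few: in normal livers Bik had 4, 5 and 0 and Pmaip1 14, 5 and 10. In TA livers Bik had 7, 5 and 5 reads and Bcl2l14 8, 9 and 4. Neutrophil markers summed to 9.58 to 22.8 CPM in normal, 33.2 to 83.0 in model and 16.5 to 30.3 in TA livers. Macrophage markers summed to 625 CPM in the first model liver against 105 to 274 in the rest. Of the 5 macrophage genes, Marco went the other way and was lowest in that liver, at 1.41 CPM. The part of these cells was not tested.

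Among the IAPs, inhibitors of caspases, Birc5 had 2.78 in Model VS Normal (adjusted p = 0.0736, edgeR) and -2.95 in TA VS Model (adjusted p = 0.258, edgeR). Without the first model liver these values were 1.59 and -1.77. Birc5, also a mitosis gene, was set beside markers of dividing cells. These summed to 202 CPM in the first model liver, 67.0 and 15.6 in the others, 4.93 to 9.80 in normal and 3.58 to 13.4 in TA livers. The part of dividing cells in the Birc5 values was not tested. Apaf1, the scaffold of the apoptosome, had 1.48 and Birc3 1.33 (adjusted p = 0.0723 and 0.0510, edgeR) in Model VS Normal. Of the 8 genes of the death receptor arm, Cflar, which restrains caspase-8, was the 1 lower gene by the study's thresholds (-1.07, adjusted p = 0.0891, edgeR). Without the first model liver its value was -0.85, and on FPKM its model and normal livers overlapped. The reference lists Casp8 as overlapping Cflar. The caspase substrates had 0 genes past the study's thresholds in any comparison.

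**Figure D5:**
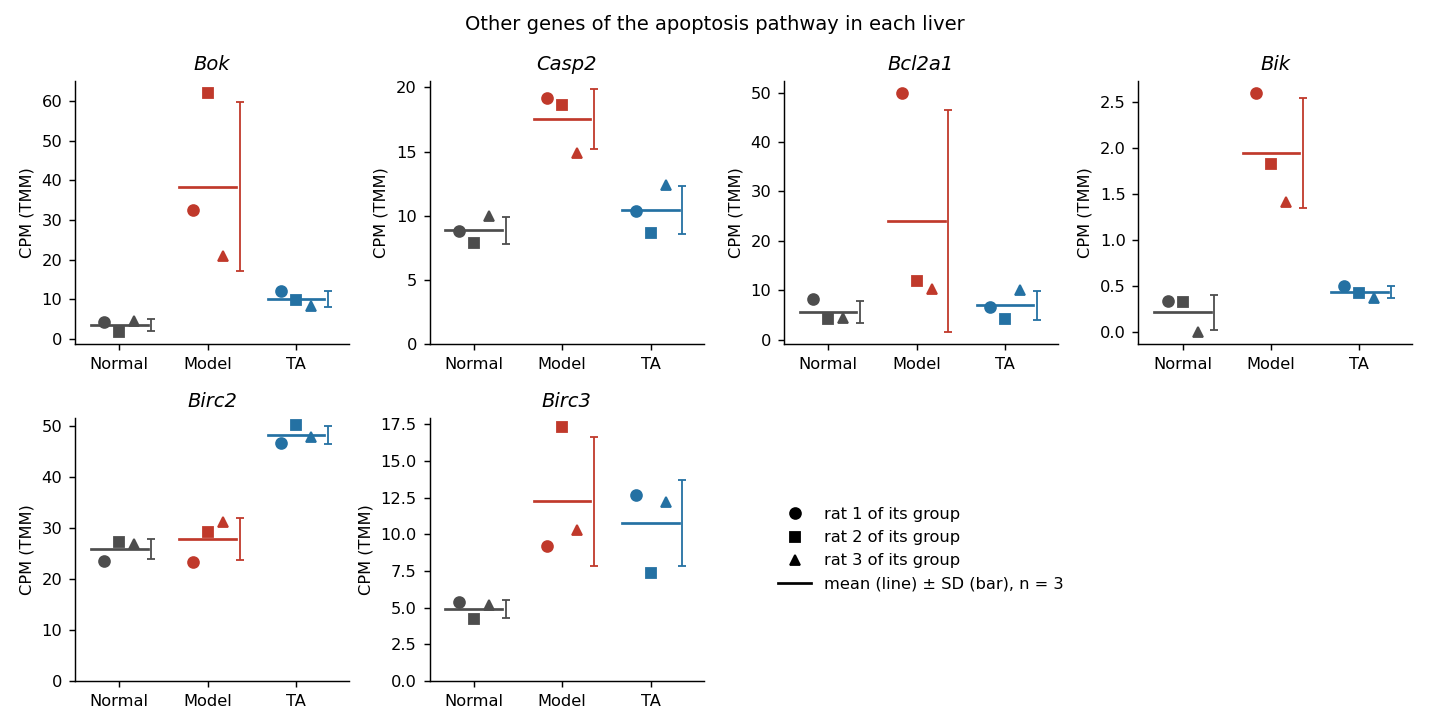
CPM after TMM in each liver of Bok, Casp2, Bcl2a1, Bik, Birc2 and Birc3; circles, squares and triangles are livers 1, 2 and 3 of a group, and lines with bars are the mean ± SD, n = 3. The model livers lie above the normal livers for Bok and Casp2, the first model liver stands apart for Bcl2a1, and Birc2 is higher in the 3 TA livers than in the other 6.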

How the data were processed

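Liver RNA was sequenced by the authors as paired reads after poly(A) selection, trimmed with Trimmomatic and Cutadapt, mapped with STAR and counted on genes with HTSeq-count. The methods name a human build and the labels mm9, whereas the gene symbols are those of the rat. Raw counts of reads on genes were deposited, on which every test here was run, and FPKM computed on the total counts, used for levels between genes. Their normalized values, fold changes and p-values were deposited too and were not used. Groups came from the labels. The TA libraries carry labels TA1 to TA3 with no dose and were taken, by assumption, as 1 group at the higher dose.

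In R 4.3.3, each comparison was fitted over all genes of its 2 groups with edgeR 4.0.16 (TMM, filterByExpr, quasi-likelihood test, Benjamini-Hochberg over all genes tested); DESeq2 1.42.0 and limma 3.58.1 served as alternatives, and the fits were tested on simulated data. CPM values use TMM factors over the 9 libraries. Exact permutation tests were two-sided on log2 CPM. The count depth per liver, 13156735 to 18090405 reads, leaves Bcl2 at 1 to 17 reads; a count of 3 reads was taken as the floor. Nothing states more than that the samples are separate rats, so p-values measure the spread between these rats. The members and lists were chosen with earlier results of these data known. All members were named; of the other pathway genes, those with an adjusted p under 0.05 were named by rule, and some are not reported here. Nearest patterns used a prior count of 2. All 7 members matched a rat RefSeq symbol (GRCr8, names and overlaps only).

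Same-numbered TA and normal livers deviated together (correlations 0.35, 0.50 and 0.61). The mean of -0.23 for other pairs adds no support, because deviations from a group's mean cancel within the group. The main tests were unpaired, and the number entered as a replicate block only in an alternative fit. No source says what the number marks. With the replicate block, TA VS Normal had 203 genes (1.67%) with an adjusted p under 0.05 instead of 32, and still 0 of 6 members, where Bax had an adjusted p of 0.167.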

Additional observations from a re-analysis of the deposited data

How the results depend on the processing

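The 318 recomputed fold changes of members held 1 with an adjusted p under 0.05 and 28 of reversed sign; the alternatives for other pathway genes were added after seeing the data, and the cause of the moves below was not tested. Members called by adjusted p: 1 in Model VS Normal (Bcl2) by voom, otherwise 0 in each comparison. Members past the study's thresholds: in Model VS Normal 3 with library totals and 1 with voom, in TA VS Model 2 with library totals, and 0 to 1 in each comparison when 1 liver was left out. The count of all genes with an adjusted p under 0.05 was 1002 in Model VS Normal, against 2654 in DESeq2, 1980 with library totals, 3433 with voom, 1757 with all 9 libraries and 0 to 2537 with 1 liver left out (0 without normal liver 2 or 3). In TA VS Model it was 0, against 541 in DESeq2, 169 with voom and 0 to 1. In TA VS Normal it was 32, against 360 in DESeq2, 56 with library totals, 76 with no filter, 126 with voom, 14 with all 9 libraries, 203 with the replicate block and 1 to 61.

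Other pathway genes called in Model VS Normal were 2, against 9 in DESeq2, with library totals and with all 9 libraries, 4 with the newer form of the fit, 1 with no filter, 12 with voom and 0 to 10 with 1 liver left out. In TA VS Model they were 4 in DESeq2 and 1 with voom, and in TA VS Normal 3 in DESeq2, 1 with voom and 1 with the replicate block (Birc2).

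Reversed signs in Model VS Normal were Bid 0.52 with library totals, Bax -0.01 with no filter, -0.13 with voom and -0.03 with the replicate block. In TA VS Model they were, with library totals, Bcl2l1 -0.50 and Bid -0.41, and, with voom, Bcl2l1 -0.12, Bid -0.03 and Bcl2l11 0.13. In TA VS Normal they were Bak1 0.06, Bcl2l1 0.15 and Bid 0.10 with library totals, and Bcl2l1 0.01 with all 9 libraries. With 1 liver left out, signs turned in these ranges: in Model VS Normal Bax -0.32 to 0.19, Bcl2l1 -0.18 to 0.15 and Bad -0.14 to 0.31; in TA VS Model Bcl2l1 -0.10 to 0.20, Bid -0.06 to 0.32 and Bcl2l11 -0.31 to 0.08; in TA VS Normal Bak1 -0.27 to 0.01, Bcl2l1 -0.17 to 0.15, Bid -0.24 to 0.13 and Bcl2l11 -0.01 to 0.45. Same-numbered livers did not deviate together in Model VS Normal (0.24, -0.04 and -0.06) or TA VS Model (0.20, -0.05 and 0.02); the replicate block gave 1216 and 0 genes there, called no member and left Casp2 at an adjusted p of 0.0733. The stricter filter dropped Bcl2.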

Other observations

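Birc2, which encodes an inhibitor of apoptosis that ubiquitinates signalling proteins of the TNF receptor, had 23.6, 27.2 and 26.8 CPM in normal livers, 23.3, 29.3 and 31.1 in model livers, and 46.7, 50.3 and 47.8 in TA livers. The TA livers were higher than all others, and the normal and model livers overlapped. Its log2 fold change in TA VS Normal was 0.87 (SE 0.17, adjusted p = 0.108, edgeR), with an adjusted p of 0.0263 with the replicate block and 0.00170 in DESeq2; over the livers left out in turn it ranged from 0.80 to 0.90. In TA VS Model it was 0.78 (adjusted p = 0.252, edgeR; 0.0304 in DESeq2). Birc2 was singled out after its values were seen. RefSeq gives Birc2 as an older name of its paralog Birc3, so which of the paralogs a symbol stands for in the tables is uncertain.

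The remaining marker lists of other cell types were as follows. Endothelial markers (4 of 5 genes in the tables) summed to 136 to 164 CPM in normal, 124 to 182 in model and 144 to 210 in TA livers. Single genes in this sum moved apart. The mean of Vwf was 58.9 CPM in model against 16.9 in normal livers. Kdr had 28.1 against 57.1, Stab2 11.8 against 23.6 and Lyve1 48.2 against 48.4. T cell markers summed to 9.25 to 22.3, 20.5 to 24.3 and 16.5 to 18.4 CPM in the same order. B and plasma cell markers summed to 21.7 to 33.9, 11.6 to 111 and 60.1 to 63.0 CPM. Jchain gave most of each sum, with 15.1 to 28.8, 9.00 to 100 and 52.0 to 57.7 CPM. Of the pancreas list 1 of 4 genes was in the tables, Cpa1, at up to 0.196 CPM, and of the adipocyte list 1 of 3, Adipoq, at up to 0.261 CPM.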
